A study of Mus musculus with 2 samples.

Results

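Chemokine receptors are seven-helix membrane proteins that couple to inhibitory G proteins and steer cells along gradients of small secreted chemokines. The genes described are 8 of the 32285 gene rows of the matrix, chosen by name: Cxcr3, Cxcr6, Ccr2, Ccr4, Ccr7, Ccr9, Cxcr4 and Xcr1. In the thymus, CXCR4 holds precursors in the cortex through CXCL12, CCR9 responds to CCL25 of the epithelium, and CCR4 and CCR7 guide positively selected thymocytes into the medulla, where CCL17 and CCL22 (CCR4) and CCL19 and CCL21 (CCR7) are made. CXCR3 binds CXCL9 and CXCL10 and CXCR6 binds CXCL16, and both mark effector-like lymphocytes, among them iNKT1 cells, the interferon-γ-producing subset of invariant natural killer T (iNKT) cells. XCR1, the receptor of XCL1, defines type 1 conventional dendritic cells (cDC1), and CCR2, the receptor of CCL2, marks monocyte-derived and some dendritic cells.

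The study compared iNKT cells of Ctrl mice and of T-KO mice, in which the floxed Kidins220 gene is removed by Cre from the proximal Lck promoter, which acts in developing T cells. All mice were on the C57BL/6 background, their ages in this experiment are not stated in the text at hand, and the thymi of 4 mice were pooled per genotype. Stage 0 cells were sorted as TCRβ+ CD1d-tetramer+ CD24+ NK1.1- and stage 3 cells as TCRβ+ CD1d-tetramer+ NK1.1+ CD24- CD44+, with a second sort of each made in parallel, and the 8 sorted populations were tagged with hashtag antibodies and sequenced as 1 droplet library. The hashtag counts lay on rows numbered 11 to 18, whereas the labels number the hashtags 1 to 8, and the rows were left without a stage, genotype or replicate. Hence no Ctrl cells were compared with T-KO cells, and no test was made.

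A cell was kept with at least 1000 genes, at most 5% mitochondrial counts and at least 80% of 10 or more hashtag UMIs (unique molecular identifiers, each standing for 1 captured transcript) on 1 row. This left 10007 of 16179 barcodes, 577 to 2162 cells per row, with 2283162 to 14601545 gene UMIs per row. The median cell held 6500 to 8068 UMIs in the odd rows and 3258 to 3804 in the even rows. Levels are CPM, the UMIs of a gene summed over the cells of a group per 1000000 UMIs of that group, with exact 95% Poisson intervals that cover counting error only. Kidins220 itself was at 13.9 to 21.03 CPM in the odd rows and 17.5 to 35.2 CPM in the even rows.

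The paper reports B cells, myeloid cells, and CD4+CD8+ and CD4-CD8- thymocytes among the sequenced cells, and removed them. It proposes that a poor CD1d-tetramer stain in that sort might explain the latter. No cells were removed for their type here, so levels of whole rows include every class. Because odd and even rows held different cells, each was divided by single genes, by the first match in the order given. In the odd rows, 810 cells with at least 2 UMIs of the B cell gene Cd79a were called Cd79a+, 972 with at least 5 of Cst3 Cst3+, 418 with at least 1 of Rag1 Rag1+ and 1106 with at least 2 of Ikzf2, which encodes Helios, Helios+, with a rest of 943. In the even rows, 1051 cells had at least 4 UMIs of Ccl5 (Ccl5-high), 538 had at least 2 of Izumo1r and none of Ccl5 (Izumo1r+), and 4169 were left (even rest). All 6 B cell markers were highest in Cd79a+ cells, all 8 myeloid and dendritic cell markers in Cst3+ cells and 7 of 8 markers of CD4+CD8+ double-positive thymocytes in Rag1+ cells. All 7 iNKT1 markers were highest in a class of the even rows. Each of these lists holds a gene that defined a class (Cd79a, Cst3, Rag1 or Ccl5), whose place was set by the rule. Of 9 stage 0 iNKT markers 6, with Ikzf2 among them by the rule, were highest in Helios+ cells, but Trav11, the gene segment of the invariant iNKT receptor, was at 0.583 CPM there against 39.6 to 58.9 CPM in the even-row classes, so the Helios+ class was not called iNKT cells.

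Cxcr3 and Cxcr6 were the members of the even rows, and they lie on different chromosomes. Cxcr3 (ENSMUSG00000050232) spans chrX:101731535-101734269 on the minus strand of GRCm38 (mm10, GENCODE M21), with 2 exons that both hold coding sequence in its annotated transcript, and Cxcr6 (ENSMUSG00000048521) spans chr9:123806475-123811760 on the plus strand, with 2 exons in its first annotated transcript, of which 1 holds coding sequence. Their promoter sequences are shown because both genes were high in the same rows. The bases before every annotated start are given 5′ to 3′ from RefSeq (GRCm38.p6), chrX:101734270-101734397 on the minus strand and chr9:123806227-123806474 on the plus strand, with capitals for a T-box half-site (GTGTGA, or TCACAC on the other strand) or a Runx site (TGTGGT, or ACCACA).
Cxcr3: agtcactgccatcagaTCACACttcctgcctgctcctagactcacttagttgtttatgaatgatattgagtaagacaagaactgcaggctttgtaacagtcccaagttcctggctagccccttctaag
Cxcr6: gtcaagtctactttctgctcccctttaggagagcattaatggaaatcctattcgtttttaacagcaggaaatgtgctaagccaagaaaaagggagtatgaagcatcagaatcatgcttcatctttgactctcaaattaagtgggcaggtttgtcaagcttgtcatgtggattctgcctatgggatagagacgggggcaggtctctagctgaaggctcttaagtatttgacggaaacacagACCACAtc
T-box and Runx factors are transcription factors of effector lymphocytes. In windows of 250 bases before the start, Cxcr3 held 1 T-box half-site and 1 Runx site, the latter outside the stretch shown, and Cxcr6 held 1 Runx site and no T-box half-site. The windows of Ccr2, Ccr4, Ccr9, Cxcr4 and Xcr1 held neither, and no window of Ccr7 was in the table used. Of all 32851 mouse windows of this length, 12.3% held the T-box half-site and 14.05% the Runx site, so a match is a description of letters and no evidence of binding.

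The other members lie at chr9:114490316-114504916 (Ccr4, minus strand), chr9:123678439-123784330 (Ccr9, plus), chr9:123852315-123862029 (Xcr1, minus), chr9:124101950-124113557 (Ccr2, plus), chr11:99144196-99155077 (Ccr7, minus) and chr1:128588199-128592293 (Cxcr4, minus). Thus 5 of the 8 are on chromosome 9, and Ccr9, Cxcr6, Xcr1 and Ccr2 lie within 435.1 kb that hold 9 coding genes. Ccr9 ends 22.1 kb before Cxcr6, Cxcr6 ends 40.6 kb before Xcr1, and Ccr2 starts 239.9 kb after Xcr1. Of these neighbors, Xcr1 and Ccr2 were both highest in Cst3+ cells, Ccr9 in the rest class and Cxcr6 in the even-row classes. Ccr9 overlaps Lztfl1 and the start of Slc6a20a, and Cxcr6 lies within Fyco1, each on the opposite strand. Ccr9 also overlaps the noncoding gene Gm17200 on its own strand. Whether counting used strand is not stated in the text at hand, and reads of overlapping parts were not examined. Fyco1 was at 10.9 to 22.8 CPM over the 8 classes. Lztfl1 was at 45.9 CPM in the rest class, where Ccr9 was highest, and at 8.60 to 12.7 CPM in the even-row classes.

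Cxcr3 and Cxcr6 transcripts were abundant in every even row and scarce in every odd row. Cxcr3 was at 233, 262, 256 and 295 CPM in rows 12, 14, 16 and 18, and at 22.5, 18.1, 15.3 and 11.9 CPM in rows 11, 13, 15 and 17. Cxcr6 was at 285, 306, 206 and 205 CPM in the even rows and at 5.23, 4.45, 2.96 and 4.81 CPM in the odd rows. Neither gene had an overlap between odd and even rows. The share of all genes that separate groups of rows in this way was not counted, here or in the comparisons below. Over the pooled cells Cxcr6 was 60.7-fold higher in the even rows (52.1 to 71.2) and Cxcr3 14.7-fold higher (13.6 to 15.96).

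**Figure D1:**
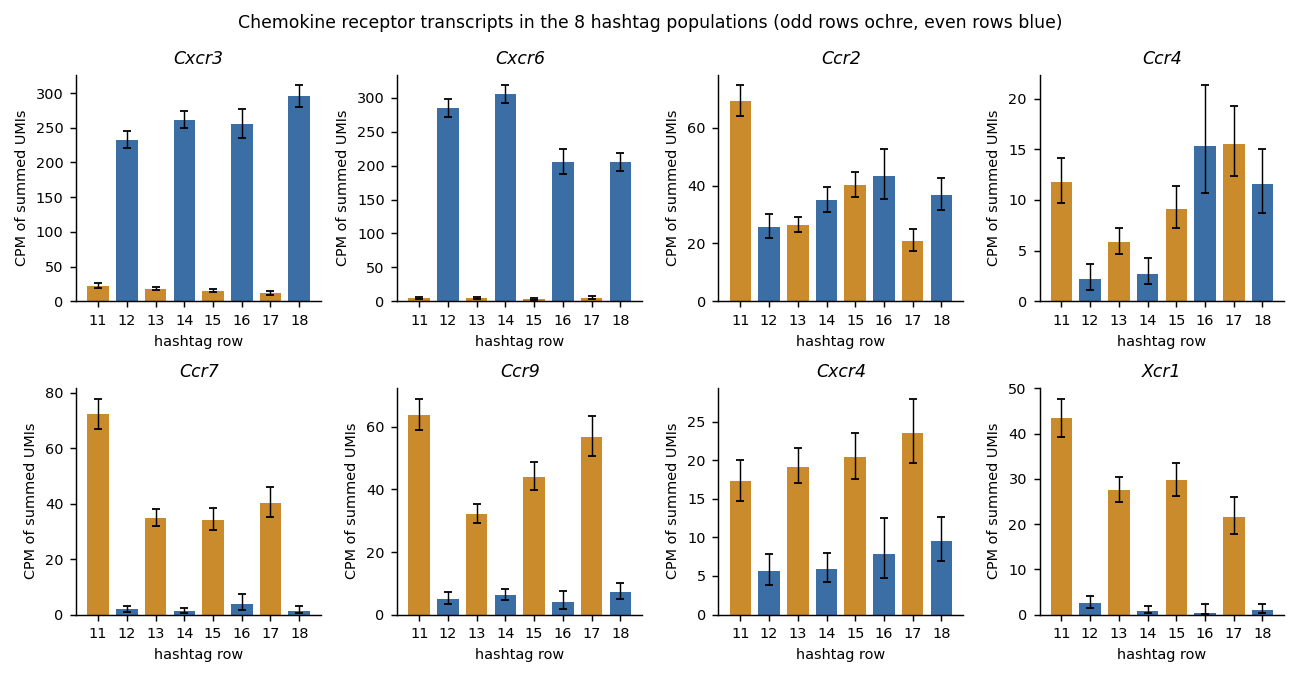
Levels of the 8 chemokine receptor genes in the 8 hashtag populations, in CPM of summed UMIs, with the hashtag row on the x axis, odd rows in ochre, even rows in blue and bars of the exact 95% Poisson interval. Cxcr3 and Cxcr6 are high in each of the 4 even rows, Ccr7, Ccr9, Cxcr4 and Xcr1 in each of the 4 odd rows, and rows 16 and 18 have more Ccr4 and less Cxcr6 than rows 12 and 14.

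The opposite order held for 4 members. Ccr7 was at 72.3, 34.9, 34.2 and 40.4 CPM in rows 11, 13, 15 and 17 and at 1.82, 1.23, 3.94 and 1.44 CPM in the even rows. Xcr1 was at 43.4, 27.6, 29.7 and 21.7 CPM in the odd rows and at most 2.48 CPM in an even row. Ccr9 was at 63.8, 32.3, 44.1 and 56.8 CPM in the odd rows and at 5.12, 6.16, 3.94 and 7.22 CPM in the even rows. The groups did not overlap for any of these genes, which was again not set against all genes. The pooled levels in the even rows were 25.6-fold lower for Ccr7 (18.4 to 36.6), 23.7-fold lower for Xcr1 (16.2 to 36.1) and 7.92-fold lower for Ccr9 (6.58 to 9.61). Cxcr4 was at 17.2, 19.2, 20.4 and 23.5 CPM in the odd rows and at 5.62, 5.88, 7.88 and 9.49 CPM in the even rows, again without overlap, 2.84-fold lower (2.37 to 3.43).

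Ccr2 and Ccr4 did not follow the parity of the rows. Ccr2 was at 69.3, 26.5, 40.3 and 20.9 CPM in the odd rows and at 25.8, 35.03, 43.4 and 36.9 CPM in the even rows. Ccr4 was at 11.8, 5.82, 9.11 and 15.6 CPM in the odd rows and at 2.15, 2.74, 15.3 and 11.5 CPM in the even rows. The ranges overlapped for both genes.

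For a comparison across all genes, a log2 ratio was taken of the pooled CPM of both groups plus 10 CPM, for genes at 10 CPM or more in either group, and a gene was counted when it reached 2-fold. With 1 library this is a description of size and not a test. Of the 9261 genes measured, 6.21% were at least 2-fold higher in the even rows and 10.7% at least 2-fold lower. Of the 7 members that passed 10 CPM, 2 were higher (Cxcr3 and Cxcr6, log2 ratios 3.29 and 4.26) and 3 lower (Ccr7, Xcr1 and Ccr9, log2 ratios -2.22, -1.87 and -1.83). With the 10 CPM added, Cxcr4 (log2 ratio -0.81) and Ccr2 (-0.19) stayed within 2-fold, although Cxcr4 was 2.84-fold lower without them. Ccr4 was under 10 CPM in both groups.

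Other receptors and the ligands, from lists of 19 and 35 genes, were read in the same comparison. Of 6 other receptors measured, 3 were at least 2-fold higher in the even rows and 1 lower. These were Ccr8, a CCL1 receptor of T cells (47.5 against 2.88 CPM), Gpr183, an oxysterol receptor (61.6 against 23.9 CPM), Ccrl2, a chemerin-binding receptor (24.9 against 6.28 CPM), and, in the lower direction, the CCL20 receptor gene Ccr6 (1.81 against 42.2 CPM). Of 7 ligands measured, Xcl1 (286 against 32.3 CPM) and Ccl5 (754 against 99.7 CPM) were higher in the even rows, and Ccl22, Ccl17 and Cxcl16 lower, at 3.61, 1.27 and 2.34 CPM against 84.5, 37.2 and 42.7 CPM. Of 35 measured genes for receptor signaling and cell movement 10 were higher and 4 lower, among them the integrin genes Itgal (265 against 69.8 CPM), Itgb2 (365 against 106 CPM) and Itgb7 (304 against 75.1 CPM), which were higher, and Itga4 (35.6 against 183 CPM), which was lower. The median log2 ratio was 0.94 for the other receptors, -0.15 for the ligands and 0.35 for the signaling genes, against -0.09 over all genes.

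**Figure D2:**
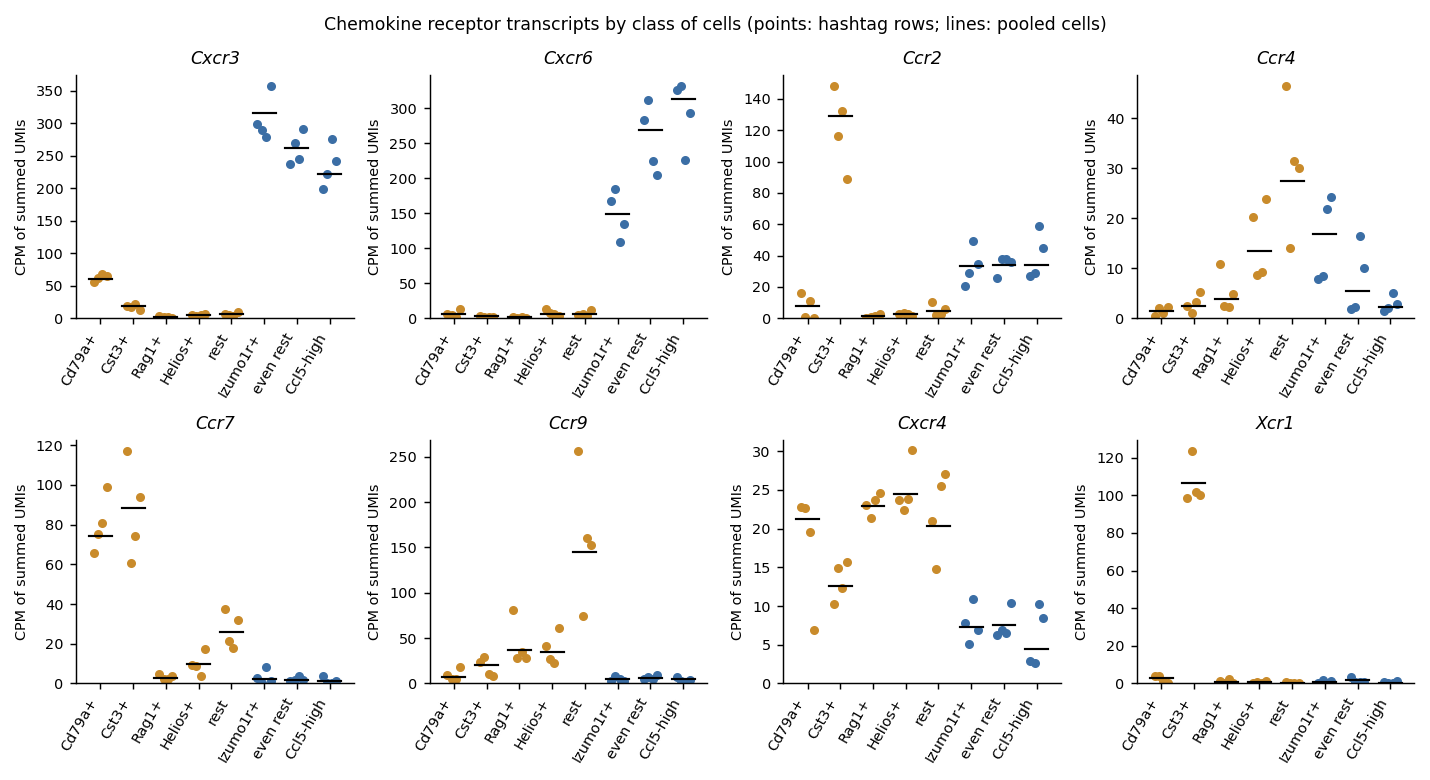
Levels of the 8 genes by class of cells in CPM of summed UMIs, where each point is a class in 1 hashtag row (4 rows per class) and the line is the level over all cells of the class, with odd-row classes in ochre and even-row classes in blue. Xcr1 and Ccr2 are highest in Cst3+ cells, Ccr7 in Cst3+ and Cd79a+ cells, Ccr9 and Ccr4 in the rest class, and Cxcr3 and Cxcr6 in the even-row classes, in opposite order between Izumo1r+ and Ccl5-high cells.

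Within the even rows, the cells with Izumo1r and without Ccl5 had more Ccr4 and less Cxcr6 than the cells with abundant Ccl5. Izumo1r encodes folate receptor 4, and Ccl5 encodes a chemokine of cytotoxic lymphocytes. Cxcr6 was at 167, 184, 109 and 135 CPM in Izumo1r+ cells of rows 12, 14, 16 and 18 and at 326, 332, 225 and 294 CPM in Ccl5-high cells. Every Ccl5-high population lay above every Izumo1r+ population, and how many of all genes did so was not counted. The pooled levels were 149 and 312 CPM, a 2.09-fold difference (1.85 to 2.37).

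Ccr4 went the other way. It was at 7.82, 8.44, 21.9 and 24.2 CPM in the Izumo1r+ cells of the 4 rows and at 1.45, 1.97, 5.12 and 2.80 CPM in the Ccl5-high cells. No populations overlapped between the classes, and Ccr4 was 7.47-fold lower in Ccl5-high cells (3.54 to 17.6), on counts of 37 and 9 UMIs. Cxcr3 was at 299.7, 290.5, 279 and 357 CPM in Izumo1r+ cells and at 199, 221, 277 and 242 CPM in Ccl5-high cells. It was lower in the Ccl5-high cells of each row, by 1.42-fold overall (1.29 to 1.57), although row 16 showed nearly equal values. Ccr2 was at 20.8, 28.7, 49.3 and 34.6 CPM in Izumo1r+ cells and at 26.8, 28.8, 58.9 and 44.8 CPM in Ccl5-high cells. It was higher in the Ccl5-high cells of each row, by little in row 14, while the pooled levels, to which the rows gave different shares of each class, had a ratio of 1.03 (0.766 to 1.38).

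Of 8238 genes measured in this comparison, 0.51% were at least 2-fold higher in Ccl5-high cells and 0.34% lower. Of the 4 members that passed 10 CPM, Cxcr6 was counted as higher (log2 ratio 1.02) and Ccr4 as lower (-1.13), while Cxcr3 (-0.49) and Ccr2 (0.03) were not counted. Cxcr6 lay at the limit and was not counted without row 16 (0.99) or without row 18 (0.95), and Ccr4 was not counted without row 18 (-0.86). Ccl5 and Izumo1r chose the cells, so their own difference is no result. None of 5 other receptors measured reached 2-fold. Of the ligands, Ccl4 (36.9 against 8.15 CPM) and Ccl3 (11.7 against 0.453 CPM, the latter from 1 UMI) were higher in the Ccl5-high cells beside Ccl5, and of the signaling genes the integrin gene Itgb1 (293 against 109 CPM).

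**Figure D3:**
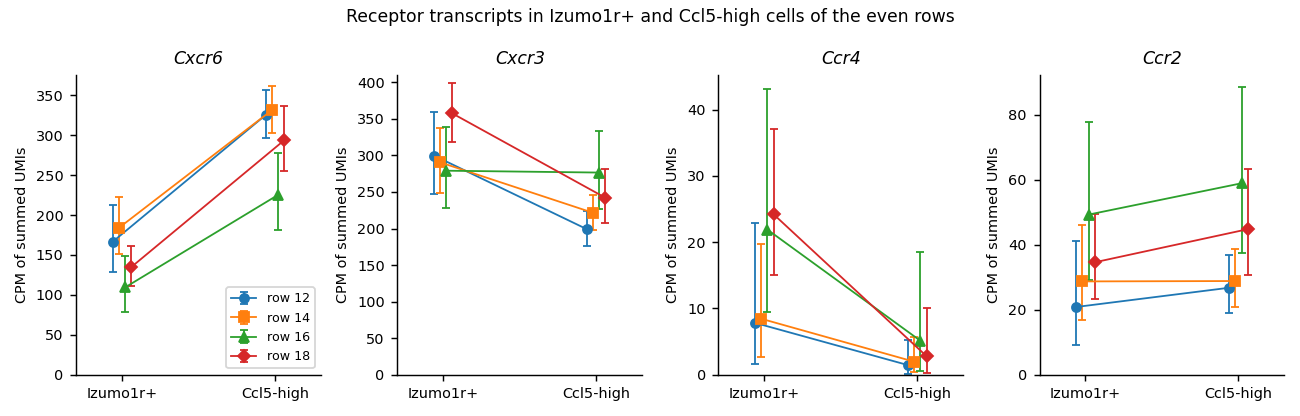
Levels of Cxcr6, Cxcr3, Ccr4 and Ccr2 in CPM of summed UMIs in the Izumo1r+ and Ccl5-high cells of each even row, joined by row, with exact 95% Poisson intervals. In each of the 4 rows Cxcr6 is higher and Ccr4 lower in Ccl5-high cells, and Cxcr3 differs little in row 16.

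The same genes were read in finer steps of Ccl5 among cells of similar depth. Among even-row cells of 2500 to 5000 UMIs, Cxcr6 was at 245 CPM in 2524 cells without a Ccl5 UMI, at 283 CPM in 479 cells with 1, and at 336, 333 and 320 CPM in cells with 2 to 3, 4 to 7 and 8 or more. The last 3 values lay within their counting intervals of each other. Cxcr3 was at 280.0, 270.3, 275, 278 and 204 CPM over the same steps, so that the lower level was seen in the 524 cells with 8 or more Ccl5 UMIs (184 to 226). Ccr4 was at 5.95, 8.14, 4.02, 4.48 and 1.60 CPM, with wide intervals from 3 UMIs in the last step. Ccr2 stayed between 26.9 and 34.6 CPM. The even rows were pooled in each step, although they differed in their shares of Ccl5-high cells.

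**Figure D4:**
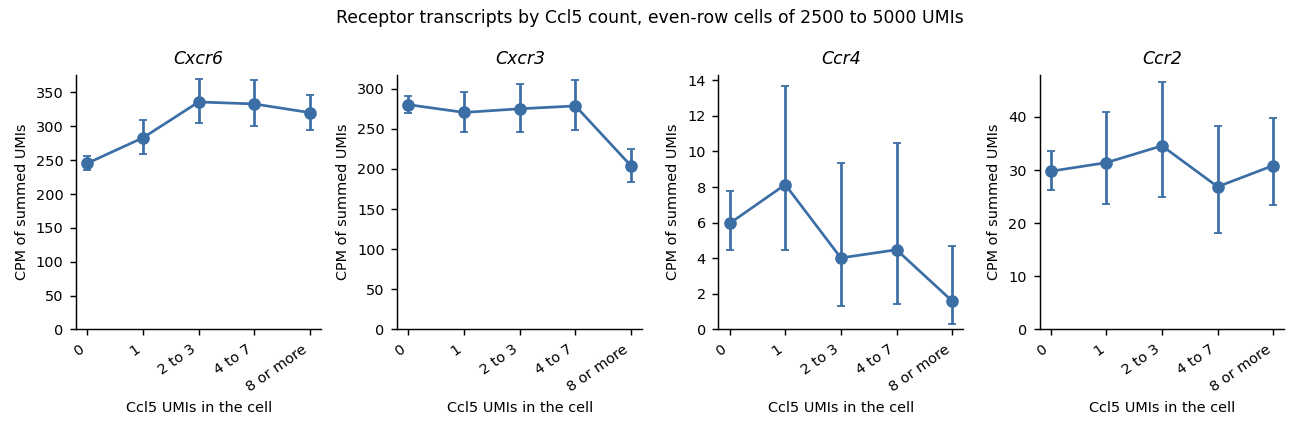
Levels of 4 receptor genes in CPM of summed UMIs against the number of Ccl5 UMIs in the cell, for even-row cells of 2500 to 5000 UMIs, with exact 95% Poisson intervals. Cxcr6 is higher from 1 Ccl5 UMI on, Cxcr3 is lower at 8 or more, and the Ccr4 intervals are wide.

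Rows 12 and 14 differed from rows 16 and 18 within this even-row set. Izumo1r+ cells were 5.59% and 7.59% of the cells in rows 12 and 14, and 12.5% and 16.1% in rows 16 and 18. Ccl5-high cells were 21.7%, 18.9%, 15.8% and 13.5% in the order of the rows. Ccr4 and Cxcr6 moved with these shares over the rows and also differed within classes: in the even rest class Ccr4 was at 1.87, 2.31, 16.4 and 10.1 CPM and Cxcr6 at 283, 312, 224 and 205 CPM in rows 12, 14, 16 and 18. The rows are not tied to a genotype here, so these are values of 4 populations and no comparison of Ctrl with T-KO cells.

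Cxcr3 and Cxcr6 were often found without each other in the same cell, as far as shallow counts can show. After each of 5206 even-row cells with at least 2000 UMIs was thinned to that number, 14.1% held both transcripts, 25.5% held Cxcr3 without Cxcr6, 20.8% held Cxcr6 without Cxcr3 and 39.6% held neither. Cxcr6 without Cxcr3 made up 23.3% and 23.0% of cells in rows 12 and 14 and 16.7% and 15.2% in rows 16 and 18. A transcript missing from a thinned cell may still have been present. Whether both met in a cell more or less often than unrelated transcripts would was not tested. In a separate random thinning to the same number, 1.23% of Helios+ cells held a Cxcr3 UMI and 1.90% a Cxcr6 UMI, against 39.8% and 35.4% of the even-row cells, at median depths before thinning of 5518 UMIs in Helios+ cells and 3258 to 3804 in the even rows.

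Ccr2, pooled over rows, was at 33.1 to 33.9 CPM in the 3 even-row classes, while single rows ranged from 20.8 to 49.3 CPM in Izumo1r+ cells, 25.9 to 38.0 CPM in even rest cells and 26.8 to 58.9 CPM in Ccl5-high cells. Myeloid RNA was higher in the 541 even-row cells with a Ccr2 UMI than in the other 5217. Lyz2, the lysozyme gene of myeloid cells, was at 72.5 against 8.71 CPM, H2-Aa at 325 against 119 CPM and Cd209a at 25.9 against 1.59 CPM. The 8 myeloid and dendritic cell markers summed to 354 to 560.3 CPM in the even-row classes and to 21512 CPM in Cst3+ cells. The split by Ccr2 still held the 127 even-row cells (2.21%) that matched the Cd79a, Cst3 or Rag1 limits of the odd rows. Without these 127 cells Ccr2 was at 33.4 CPM in the even rows, and the source of the myeloid RNA was not tested. Xcr1, at 106 CPM in Cst3+ cells where Ccr2 was at 129 CPM, was at 1.32 CPM in the even rows. Of the cells with a Ccr2 UMI 60.8% also held Cxcr6, against 46.7% of those without, at median depths of 3623 and 3369 UMIs.

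Ccr4 in the even rows was found in cells with more Izumo1r and less Ccl5. These genes chose the classes above, so their values here partly repeat the Ccr4 difference between those classes. The 106 even-row cells with a Ccr4 UMI had Izumo1r at 475 CPM against 158 CPM in the others, Icos, a costimulatory receptor gene, at 239 against 107 CPM, Zbtb16, which encodes PLZF, at 150 against 69.9 CPM, and Ccl5 at 232 against 765 CPM. Trav11 was at 60.9 CPM in them and at 48.0 CPM in the others, and the median depths were 3852 and 3392 UMIs.

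In the odd rows, Ccr9 was highest in the rest class, at 256, 74.0, 161 and 152 CPM in rows 11, 13, 15 and 17 and 145 CPM overall (137 to 155). The next classes, Rag1+ (36.4 CPM, 27.6 to 81.4 over the rows) and Helios+ (34.8 CPM, 22.9 to 60.7), overlapped with each other and with Cst3+ cells (20.5 CPM), and Rag1+ cells of row 11 lay above the rest cells of row 13. Ccr4 had the same leading class, at 27.5 CPM in the rest class (14.04 to 46.5 over the rows), ahead of 13.5 CPM in Helios+ cells (8.66 to 23.8) and 3.76 CPM in Rag1+ cells (2.26 to 10.8), each range overlapping the next. Ccr7 was at 25.8 CPM in the rest class (17.7 to 37.5), 9.57 CPM in Helios+ cells (3.90 to 17.6) and 2.87 CPM in Rag1+ cells (2.26 to 4.61). The rest and Helios+ ranges nearly met, at 17.66 and 17.60 CPM, and how many of all genes stayed apart in this way was not counted.

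Pairs of these 3 transcripts met more often in the same cells of the rest class, and cells with all 3 were not counted. Of 371 rest cells with a Ccr9 UMI, 100 (27.0%, 22.5 to 31.8) also had a Ccr4 UMI, against 34 of 572 cells without Ccr9 (5.94%, 4.15 to 8.21), although the cells with Ccr9 were shallower (median 2893 against 7704 UMIs). Ccr7 was found in 76 (20.5%) of the cells with Ccr9 and in 52 (9.09%) of those without. The cells with Ccr9 had genes of selected thymocytes at high levels, Itm2a at 1067 against 113 CPM, Satb1, a chromatin organizer of thymocytes, at 1723 against 411 CPM, and Cd4 at 123 against 15.9 CPM. Genes of early progenitors were lower in them, Il2ra (CD25) at 17.7 against 167 CPM and Kit at 5.37 against 54.3 CPM. The rest cells with Ccr4 showed Il2ra at 6.94 CPM and Izumo1r at 133 CPM, against 141 and 23.3 CPM in those without.

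In Helios+ cells the same pairing held. Ccr4 was found in 34 of 115 cells with Ccr9 (29.6%, 21.4 to 38.8) and in 48 of 991 without (4.84%, 3.59 to 6.37), at median depths of 5674 and 5490 UMIs. The cells with Ccr9 had Cd8b1 at 232 against 52.2 CPM. They had less Xcl1 (21.3 against 129 CPM) and less Il2rb, the IL-15 receptor β chain gene (64.9 against 232 CPM).

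Cxcr4 was the most evenly spread member of the odd rows. It was at 24.5 CPM in Helios+ cells (22.4 to 30.1 over the rows), 22.9 CPM in Rag1+ cells, 21.2 CPM in Cd79a+ cells and 20.3 CPM in the rest class, all of which overlapped, and at 12.6 CPM in Cst3+ cells. In the even rows it was at 4.48 to 7.50 CPM. Cxcl12, its ligand gene, was at most 0.233 CPM in any class.

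Between Helios+ and Rag1+ cells, no member was counted as changed once 10 CPM were added to both levels. Of 8807 genes measured, 5.45% were at least 2-fold higher in Helios+ cells and 0.602% lower. Of the 3 members past 10 CPM, Ccr4 was 3.60-fold higher in Helios+ cells (2.25 to 6.03, log2 ratio 0.77), higher in each of the 4 odd rows, Cxcr4 had a log2 ratio of 0.07 and Ccr9 of -0.05. The Ccr9 value depended on how cells were weighted: as a mean of single cells the log2 ratio was -1.16, and with cells of at most 4000 genes -1.01. Among the ligands Xcl1 was at 115 CPM in Helios+ cells against 4.12 CPM in Rag1+ cells.

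Between the even rows and the Helios+ cells, 6 members passed 10 CPM. Cxcr3 was 60.4-fold higher in the even rows (43.7 to 85.8), Cxcr6 39.8-fold (30.7 to 52.6) and Ccr2 13.1-fold (8.59 to 21.1), while Ccr9 was 5.94-fold lower (4.79 to 7.40) and Cxcr4 3.56-fold lower (2.86 to 4.44). These 3 higher and 2 lower members stood beside 6.28% of 9157 genes at least 2-fold higher and 9.24% lower. Cxcr4 lay at the limit (log2 ratio -1.03) and was within it without row 12 (-0.99), row 14 (-0.98) or row 17 (-0.97). Ccr4 had a log2 ratio of -0.55, and was 2.24-fold lower without the added 10 CPM.

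Xcr1 and Ccr2 were highest in the Cst3+ cells of the odd rows, and Ccr7 was high in them and in Cd79a+ cells. Xcr1 was at 98.5 to 123 CPM over the 4 rows in these cells and at most 3.12 CPM in any other class. Ccr2 was at 148, 116, 132 and 88.7 CPM in rows 11, 13, 15 and 17, above every other class and row. Ccr7 was at 117, 60.5, 74.4 and 93.9 CPM, a range shared with Cd79a+ cells (65.6 to 98.8 CPM), which had the higher level in rows 13, 15 and 17 and the lower in row 11. After thinning to 2000 UMIs, 15.3% of Cst3+ cells held an Xcr1 UMI, 24.1% a Ccr2 UMI and 7.01% a Ccr7 UMI, against 0.121%, 1.21% and 8.82% in the rest class, with medians of 10487 and 4159 UMIs before thinning.

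The 334 Cst3+ cells with an Xcr1 UMI had the cDC1 genes. Irf8, a transcription factor that cDC1 need, was at 1744 CPM against 288 CPM in the 638 others, and Clec9a, a receptor for dead cells, at 143 against 17.7 CPM. Genes of type 2 conventional dendritic cells (cDC2) were low in them, Cd209a at 19.4 against 348 CPM, Mgl2 at 8.02 against 294 CPM and Sirpa at 1.22 against 109 CPM. Cxcr3 was found in 118 of the cells with Xcr1 (35.3%, 30.2 to 40.7) and in 41 of those without (6.43%, 4.65 to 8.62), at 39.9 and 6.23 CPM, with median depths of 12286.5 and 9593.5 UMIs.

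Ccr2 reached both kinds of cell. It was found in 203 of the 334 cells with Xcr1 (60.8%) and in 254 of the 638 without (39.8%). The 457 cells with Ccr2 had more Irf8 (1229 against 499 CPM), more Cd209a (340 against 129 CPM) and more Lyz2 (457 against 76.2 CPM) than the 515 without, with median depths of 10475 and 10506 UMIs.

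Ccr7 stood apart from both. Of 83 Cst3+ cells with a Ccr7 UMI, 4 had Xcr1 and 5 had Ccr2, against 330 and 452 of the 889 cells without Ccr7. The cells with Ccr7 had the genes of activated, migrating dendritic cells, Fscn1, an actin-bundling protein gene, at 3840 against 18.8 CPM, and Nudt17 and Cacnb3 at 501 and 401 CPM against 0.392 and 1.08 CPM. Chemokine transcripts were also higher in them, with Ccl22 at 2364 against 4.02 CPM, Ccl5 at 3892 against 13.03 CPM, Ccl17 at 579 against 92.7 CPM and Cxcl16 at 487 against 117 CPM. CCL17 and CCL22 are the ligands of CCR4, and CXCL16 that of CXCR6.

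**Figure D5:**
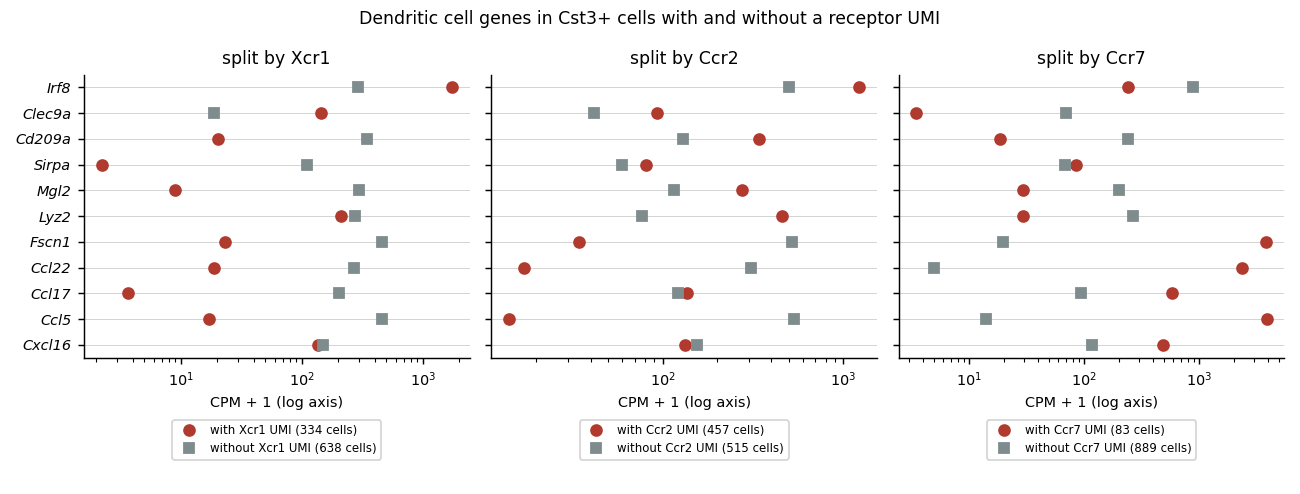
Levels in CPM plus 1, on a log axis, of 11 dendritic cell and chemokine genes in Cst3+ cells with (red circles) and without (gray squares) a UMI of Xcr1, Ccr2 or Ccr7. Cells with Xcr1 have high Irf8 and Clec9a and low Cd209a, Sirpa and Mgl2, and cells with Ccr7 have high Fscn1, Ccl22, Ccl17, Ccl5 and Cxcl16.

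Cd79a+ cells had Ccr7 at 65.6, 75.5, 80.6 and 98.8 CPM in rows 11, 13, 15 and 17, Cxcr3 at 55.8 to 67.5 CPM, and Cxcr4. They were also the class with the most Ccr6 (237 CPM), Cxcr5, the CXCL13 receptor gene of B cell follicles (57.4 CPM), and Ccr1 (41.3 CPM). In the 224 Cd79a+ cells with a Ccr7 UMI, Ccl22 was at 405 CPM against 127 CPM in the others and Fscn1 at 247 against 148 CPM, at median depths of 5994 and 6004 UMIs. The 203 Cd79a+ cells with Cxcr3 had Ccr6 at 323 against 207 CPM and Tbx21, which encodes T-bet, at 19.3 against 7.99 CPM, at median depths of 6772 and 5741 UMIs.

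Ccl17 was at 128 CPM and Cxcl16 at 144 CPM in Cst3+ cells and at most 2.81 and 6.70 CPM in any other class, and Ccl22 was at 176 CPM in Cst3+ and 198 CPM in Cd79a+ cells. Xcl1 was at 338 CPM in Ccl5-high, 280 CPM in even rest and 226 CPM in Izumo1r+ cells and at 115 CPM in Helios+ cells, while Xcr1 was in Cst3+ cells. Ccl25, the CCR9 ligand gene, was at 6.24 to 22.9 CPM over all classes, highest in Helios+ cells and at 16.7 CPM in both the rest class and Rag1+ cells. Cxcl10, a CXCR3 ligand gene, was highest in Cd79a+ cells, at 24.5 CPM, where Cxcr3 was at 60.5 CPM. Among other receptors, Ccr8 was at 46.6 to 47.6 CPM in the even-row classes, and Ccr10 at 23.5 CPM in Izumo1r+ cells, where row 18 had 53.0 CPM and the other rows at most 8.44 CPM.

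The genes whose levels were most like those of each member were named over 32 units, each a class in 1 row, by Pearson's r of log2(CPM + 10) among 8472 genes. The units share 1 library and differ in depth and in cell type, so r is a description. Cxcr6 was closest to Fasl (r = 0.99), Gm2682 and Ifitm10, Cxcr3 to AW112010 (r = 0.98), Gm26740 and Ptpn18, and Xcr1 to Tlr11 (r = 0.99), Sept3 and P2ry6. Ccr7 was closest to Plekho1 (r = 0.96), Erp29 and Ifngr2, and Ccr2 to Cd9 (r = 0.95) and Tagln2 (r = 0.94). For Ccr9 these were Tmem108 (r = 0.89), the overlapping Lztfl1 (r = 0.89) and Cnn3, for Cxcr4 Top1 (r = 0.87), Usp11 and Mpp1, and for Ccr4 Kcnmb4 (r = 0.84), Itm2a and Cdh24.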

How the data were processed

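Sorted thymocytes of 8 populations were sequenced as 1 transcript library, read from the 5′ end, and 1 hashtag library. Alignment and counting were done by the authors in Cell Ranger 6.0.0, on the mouse mm10 reference. The authors deposited raw UMI counts for each barcode, by gene and by hashtag, with each barcode listed once. Counts were read with Python 3.11.15, numpy 2.4.6, scipy 1.17.1 and pandas 2.3.3 and summed per group of cells.

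Doublets between hashtags were dropped by the 80% limit. No doublet caller was run, and free RNA was not removed. A log2 ratio used a pseudocount of 10 CPM and a gene at 10 CPM or more in either group. Shares of cells were compared after thinning to 2000 UMIs only where thinning is named. Shares of cells with a receptor UMI that also held another receptor used all UMIs of each cell. Depth was not made equal for these, and median depths are given instead. Intervals of shares are Clopper-Pearson intervals at 95%. The steps were tested on simulated data.

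The members, lists and limits were chosen with earlier results of these data known. The genes named are the 8 members, listed receptors and ligands at 20 CPM or more in a class of at least 50 cells, the class markers, and the 3 genes most like each member. A few genes that this rule names are not reported here. Other listed genes past 2-fold, the splits of a class by a receptor UMI and the genes given for them were chosen after their values were seen. Alternatives changed the cell filters, the hashtag share, the CPM total, the weighting of cells, the pseudocount, the filter on low genes, the class limits and the rows included. The hashtag rows outside 11 to 18 were not used.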

Additional observations from a re-analysis of the deposited data

Results flagged for a closer look

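The matrix holds 12 hashtag rows outside 11 to 18, which no comparison used. They carried 25599 UMIs in all over the 16179 barcodes, above the 3 counts that a count of 0 allows, against 1352182 to 7856856 hashtag UMIs on each of the 8 rows in use over the same barcodes. These UMIs belong to no labelled population, and their source was not tested.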

How the results depend on the processing

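The counts of members higher in even than in odd rows (2) or Helios+ cells (3) kept their values under each alternative run. The count of members lower in even than in odd rows (3) rose with a pseudocount of 1 CPM. Cxcr4, at 6.88 against 19.6 CPM, was then also past 2-fold. The 12 ratios past 2-fold had the same direction in all 214 values under alternatives, and 198 of these were still past 2-fold. Between Ccl5-high and Izumo1r+ cells, the count of higher members (1, Cxcr6) was 0 with a hashtag share of at least 95% (log2 ratio 0.84), with a mean of single cells (0.94), with a mean of the populations (0.94), with at least 8 Ccl5 UMIs (0.997) and with at least 1 Izumo1r UMI (0.72). The count of lower members (1, Ccr4) was 0 with a mean of the populations (-0.996) and with at least 1 Izumo1r UMI (-0.78). Leaving out 1 row at a time gave counts of 0 to 1 in either direction. Between Helios+ and Rag1+ cells, where no member was counted, 1 was higher with a pseudocount of 1 CPM (Ccr4, 1.61), and 1 was lower with at most 4000 genes (Ccr9, -1.01) and with a mean of single cells (Ccr9, -1.16). Between the even rows and Helios+ cells, the count of lower members (2) was 0 with at least 4 Ikzf2 UMIs (Ccr9 -0.998, Cxcr4 -0.88), 1 with at least 1 Cd79a and 2 Cst3 UMIs (Cxcr4 -0.96), and 1 to 2 when 1 row was left out. It rose with a pseudocount of 1 CPM, where Ccr4 (6.05 against 13.5 CPM) was also past 2-fold lower. The causes were not tested.

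Without the even-row cells that matched the Cd79a, Cst3 or Rag1 limits, an alternative chosen after seeing the data, no count changed. No paired analysis was possible because the results come from no test, and classes of the same row were compared only by their values side by side. Low counts limit Ccr4 in Ccl5-high cells, which rests on 9 UMIs, and the 1 library allows no estimate of the spread between mice.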
